A study of Mus musculus with 2 samples.

Results

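The genes described here are 36 mouse genes of sphingolipid and ceramide metabolism, chosen by name for their place in the pathway, at a time when earlier results of these data were known. All array probes other than controls that carried the name of one of them were taken, with the older Lass names accepted for the ceramide synthases. Of the 36 genes, 35 had at least 1 probe, with 46 probes in all, among 30133 genes on the array. *Cers1* had no probe under its name, so it has no value and enters only the counts of promoter sequences. All 35 genes were well above background in at least 1 genotype, 34 of them in both.

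RNA from the skin of newborn C57BL/6N mice at postnatal day 0 (P0) was measured on 1-colour Agilent arrays, 1 for *Pnpla1*+/+ and 1 for *Pnpla1*-/- mice, each loaded with RNA pooled in equal amounts from 6 animals. The *Pnpla1*-/- mice were homozygous for the tm1a(KOMP)Wtsi allele, a knockout-first allele from which the IRES-LacZ and Neo cassettes had been excised; they are labelled as knockouts with no restriction to a cell type, and the *Pnpla1*+/+ mice were their wild-type littermates from crosses of heterozygotes. The deposited description speaks of skin and also of epidermis, and markers of dermis, muscle and fat (all but *Lep* of those listed) were above background, so the tissue is called skin here. With 1 array per genotype there is no replicate, no test between the genotypes was possible, and each value describes these 2 pools. The spread between mice is not known, and in a whole tissue fewer cells of a type and less RNA per cell cannot be told apart.

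Ceramides are made from serine and palmitoyl-CoA, first as a free long-chain base, which ceramide synthases join to a fatty acid and desaturases then finish. In the upper epidermis, ceramides with very long acyl chains are glucosylated, loaded into lamellar bodies and secreted, and the glucose or phosphocholine head is removed again in the stratum corneum to build the lipid lamellae of the water barrier. PNPLA1 acts before the secretion of these lipids, where it attaches linoleate to the omega end of the acyl chain to form acylceramide. Ceramidases split ceramide back into a fatty acid and sphingosine, which can be phosphorylated, cleaved or reused.

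The signal of each probe is given as a relative signal, which is the background-corrected intensity divided by the 75th percentile of its own array, 2108 in *Pnpla1*+/+ and 1734 in *Pnpla1*-/- skin. Differences are log2 of the relative signal in *Pnpla1*-/- minus that in *Pnpla1*+/+ skin, and a gene is represented by its brightest probe. Relative signals of different probes are not comparable with each other, since probes bind their targets unequally. Over probes spotted at least 8 times on each array, the technical SD of a difference was 0.08 (309 probes). It was 0.19 over those with a relative signal under 0.1 (53 probes) and 0.067 over those with 1 or more (138 probes). This covers spot noise alone. For *Pnpla1* itself the relative signals were 0.274 (*Pnpla1*+/+) and 0.0655 (*Pnpla1*-/-), a difference of -2.07, in the direction the labels give, and the probe remained above background in the knockout. Where it lies relative to the disrupted part of the gene was not analysed here.

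Of the 35 genes, 5 were at least 2-fold higher in *Pnpla1*-/- skin (14.3%), namely *Sgpp2*, *Degs2*, *Ugcg*, *Cers3* and *Degs1*, and 1 was at least 2-fold lower (2.86%), *Sphk1*. The same thresholds were passed by 6.7% (higher) and 3.04% (lower) of all 22382 genes that gave a difference, so with this scaling the share of lower genes lay near the background and that of higher genes above it, on a count of 5 in a set whose choice was not blind to these data. One of the 5, *Sgpp2*, was above background in *Pnpla1*-/- skin only, and without such bounds 4 of 34 genes were higher and 1 lower, against 5.65% and 2.56% of all genes. The other 29 genes differed by less than 2-fold.

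The counts depended on the scaling between arrays and on the threshold. With median scaling 4 genes were higher and 1 lower (all genes 6.01% and 3.58%), and with quantile normalization also 4 and 1 (5.7% and 3.99%). Without scaling 2 were higher and 1 lower, or 5.71% and 2.86%, against 4.47% and 6.37% of all genes. With centring on spike-in probes 2 were higher and 3 lower, or 5.71% and 8.57%, against 3.73% and 9.82%. With these 2 settings the shares of higher genes rested on 2 genes and lay near the background. At 1.5-fold 10 genes were higher and 3 lower (28.6% and 8.57%, all genes 13.8% and 9.35%), and at 3-fold 2 and 0 (all genes 3.06% and 1.02%). The 10 include *Sptlc2* and *Asah2*, whose other probes gave differences of only 0.13 and 0.08.

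The median difference of the 35 genes was 0.06, against 0.00 for all genes, and the interquartile range ran from -0.24 to 0.64, against -0.26 to 0.32 for all genes. The set as a whole was therefore not shifted as a block, and its upper quartile lay above that of all genes. The differences of 28 of the 35 genes exceeded the technical SD of 0.08 taken over all probes, as did those of 83.9% of all genes, so passing it is no mark of these genes. With the SD for bright probes, *Ormdl3* and *Sgms1* would exceed it too.

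**Figure D1:**
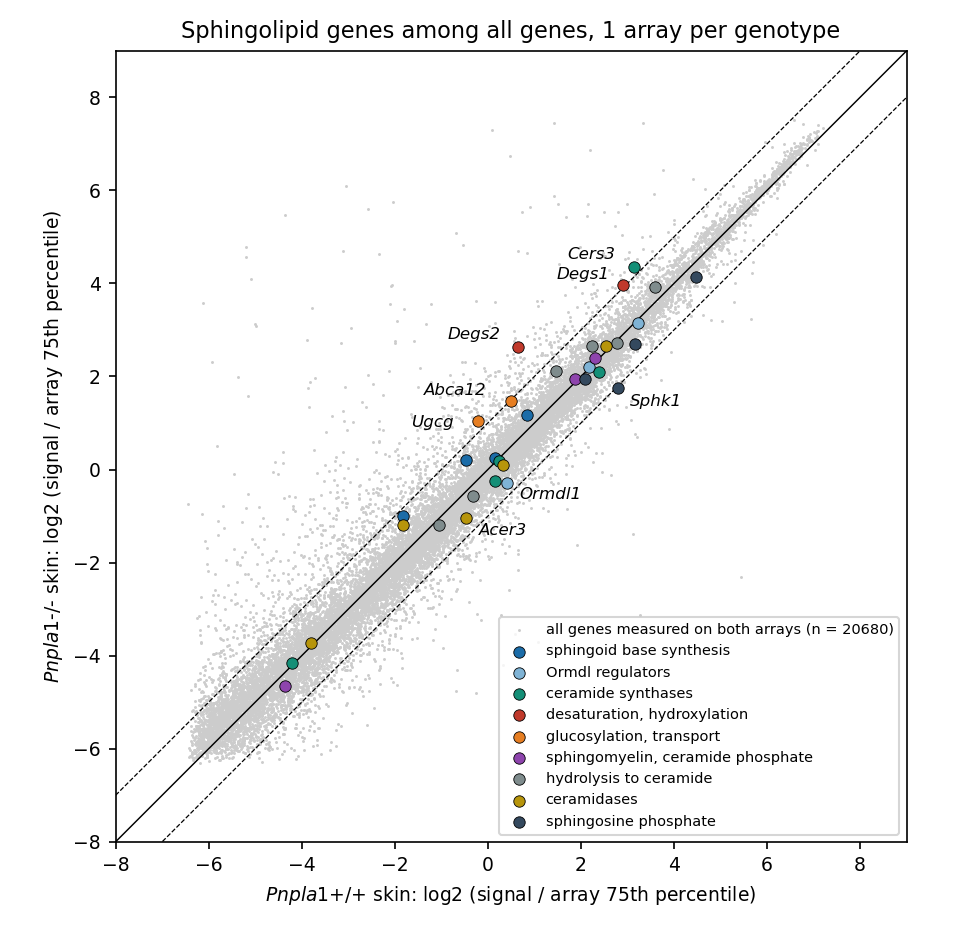
Relative signal (log2 of signal over the array's 75th percentile) in *Pnpla1*+/+ skin on the x axis and *Pnpla1*-/- skin on the y axis, with 1 point per gene measured on both arrays; grey points are all 20680 such genes, coloured points the sphingolipid genes by step, the solid line marks equal signal and the dashed lines a 2-fold difference. *Degs2*, *Ugcg*, *Cers3* and *Degs1* lie above the upper dashed line and *Sphk1* below the lower one; *Sgpp2*, measured in *Pnpla1*-/- skin only, is not drawn.

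Sequences before the start sites are shown for 3 genes at the ends of the order of differences, to give the promoter letters beside the values that follow. RefSeq start sites on GRCm38.p6 were found for 34 of the 36 genes, with 50 start sites in all, and the 250 bases before each start were searched on both strands for TGANTCA (the AP-1 motif, read the same on both strands), CCAAT, AACCGGTT (the grainyhead-like motif) and the PPAR half-site repeat known as DR1. *Degs2*, the gene with the largest difference measured on both arrays, held none of them in the 250 bases before its start, chr12:108702307-108702556 on the minus strand, which are 69.2% G and C. A stretch of 30 bases is shown for *Ormdl1*, chr1:53297038-53297067 on the plus strand, and for *Sphk1*, chr11:116531775-116531804 on the plus strand, with the motif matches in capitals, CCAAT in either orientation for *Ormdl1* and TGANTCA for *Sphk1*.
Degs2: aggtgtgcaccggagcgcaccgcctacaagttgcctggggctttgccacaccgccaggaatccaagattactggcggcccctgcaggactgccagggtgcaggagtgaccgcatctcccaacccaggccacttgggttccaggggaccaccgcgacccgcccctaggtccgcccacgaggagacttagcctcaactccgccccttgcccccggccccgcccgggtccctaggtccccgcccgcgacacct
Ormdl1: tgggATTGGcgcggctggcagCCAATcggc
Sphk1: tgagcgtgtcgcTGAGTCAccttctcggaa

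Each match is a description of the letters and not of binding. A TGANTCA match was found for 6 of the 34 genes (17.6%), *Acer3*, *Asah2*, *Psap*, *Sgms1*, *Sgms2* and *Sphk1*, against 7.82% of 27025 genes in the same table. A gene counts if any of its start sites has a match, so genes with many start sites are favoured. By start site the shares were 8 of 50 (16%) and 6.75% of 32851, with overlapping windows counted separately. *Sphk1* has 5 listed start sites, and its match lay 50 bases before one of them and, as the same site, 124 bases before another. The differences of the 6 genes are given with their steps, and no relation of the motif to their direction was tested. CCAAT was found for 12 of the 34 genes (35.3%), against 37.5% of all genes. AACCGGTT was found for *Sgms1* alone and DR1 for none, and both are too rare for a count in 34 genes to be read, with 0.137% and 0.0407% of all genes.

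Sphingoid base synthesis starts with serine palmitoyltransferase, a complex whose catalytic part pairs SPTLC1 with SPTLC2 or SPTLC3. *Sptlc2* had relative signals of 0.283 and 0.502 in *Pnpla1*+/+ and *Pnpla1*-/- skin, a difference of 0.83, and *Sptlc3*, whose product makes shorter bases in skin, had 0.720 and 1.16, a difference of 0.68. *Sptlc1*, the subunit common to both, had 1.80 and 2.25, a difference of 0.32. All 3 were below the 2-fold threshold, with the shared subunit the least changed of them. The probes of *Sptlc2* disagreed: a dimmer probe with 0.0508 and 0.0556 gave 0.13, so the difference of the gene rests on the brighter probe. *Sptlc3* had a second probe that was above background in *Pnpla1*-/- skin only, with relative signals of 0.0148 and 0.0204. Its difference of 0.46 is taken from a *Pnpla1*+/+ signal not well above background and is no firm lower limit.

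*Kdsr*, the reductase that turns the keto intermediate into dihydrosphingosine, was spotted 10 times on each array. Its relative signal ran from 1.07 to 1.16 over the *Pnpla1*+/+ spots and from 1.16 to 1.24 over the *Pnpla1*-/- spots, a difference of 0.10. The 2 sets of spots met at their edges, while the 10 spot-wise differences ran from 0.06 to 0.14, all above 0, for a gene 1.07-fold higher. Over the 4 base synthesis genes the median difference was 0.50 and all 4 were above 0, although *Sptlc1* fell below 0 with centring on spike-in probes and *Kdsr* with that centring and without scaling.

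The ORMDL proteins hold serine palmitoyltransferase in check when ceramide is plentiful. *Ormdl1* had relative signals of 1.33 and 0.823, a difference of -0.69, the second lowest of the 35 genes. *Ormdl3* (9.38 and 8.87, -0.08) and *Ormdl2* (4.54 and 4.58, 0.01) were within the technical SD of 0.08 over all probes, which covers spot noise alone. These values depended on the scaling, and *Ormdl2* changed sign in 6 of the 11 alternatives. Without scaling *Ormdl1*, *Ormdl2* and *Ormdl3* differed by -0.98, -0.27 and -0.36, and with spike-in centring by -1.12, -0.42 and -0.51. The ratio of *Sptlc2* to *Ormdl1* was 2.87-fold higher in *Pnpla1*-/- than in *Pnpla1*+/+ skin and that of *Sptlc3* to *Ormdl1* 2.60-fold higher, values that a change of the scaling factor between arrays cannot alter. These pairs, like the other ratios of 2 genes given here, were chosen after the values were seen. With the mean over all probes the log2 ratio of *Sptlc2* to *Ormdl1* was 1.17, against 1.52 with the brightest probe.

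The ceramide synthases differ in the acyl chains they accept, and CERS3 is the enzyme for the ultra-long chains of epidermal acylceramides. *Cers3* had relative signals of 8.77 and 20.5 (chr7:73968501-73968560 on mm9), a difference of 1.22. A dimmer probe of *Cers3* gave 0.0562 and 0.117, a difference of 1.06, so both probes passed 2-fold. The other 4 synthases measured were all under 2-fold, and 3 of them were below 0. *Cers2*, which uses very long chains in many tissues, was the lowest of them at 1.12 and 0.842, a difference of -0.41. *Cers5*, which mainly makes ceramide with palmitate, had 5.22 and 4.27, a difference of -0.29. *Cers4* differed by -0.05, and *Cers6*, a dim probe at 0.0541 and 0.0557, by 0.04.

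The other 4 synthases stayed under 2-fold in all settings tried, in which *Cers2*, *Cers4* and *Cers5* also stayed below 0. The changes of scaling moved the median of all genes down, so they hardly test the sign of these 3 genes. The ratio of *Cers3* to *Cers2* was 3.09-fold higher in *Pnpla1*-/- skin and that of *Cers3* to *Cers5* 2.86-fold higher. On the log2 scale the first ratio was 1.63, and 1.51 with quantile normalization. The difference of *Cers3* alone depended on the scaling between arrays, and was 0.94 without scaling and 0.79 with centring on spike-in probes, both under 2-fold.

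Both genes of the desaturation step passed 2-fold. DEGS2 can desaturate the base of dihydroceramide and also hydroxylate it, which yields the phytoceramides that are abundant in skin, and DEGS1 is the general desaturase that makes ordinary ceramide. *Degs2*, spotted 10 times (chr12:109928501-109928560 on mm9), ran from 1.48 to 1.64 over the *Pnpla1*+/+ spots and from 5.86 to 6.41 over the *Pnpla1*-/- spots. No spot of one array came near those of the other, and the 10 spot-wise differences ran from 1.94 to 2.01. The gene was 3.92-fold higher in *Pnpla1*-/- skin, a difference of 1.97 that 1.9% of all genes reached or passed. It stayed above 2-fold in all 11 alternatives, the lowest being 1.54 with centring on spike-in probes.

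*Degs1* had relative signals of 7.48 and 15.6 (chr1:184206280-184206339 on mm9), a difference of 1.06 and 2.08-fold higher. Among the genes at least 2-fold higher it lay nearest the threshold. It was under 2-fold with median scaling, quantile normalization, spike-in centring and no scaling, and lowest with 0.63 for spike-in centring. Both desaturases were higher in *Pnpla1*-/- skin in all settings tried, and the ratio of *Degs2* to *Degs1* was 1.88-fold higher.

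Glucosylation and transport lead ceramide into the lamellar bodies. *Ugcg*, whose product adds the glucose, had relative signals of 0.860 and 2.06 (chr4:59235333-59235392 on mm9), a difference of 1.26 and 2.39-fold higher. *Abca12*, which encodes the transporter that carries glucosylceramide into lamellar bodies, had 1.42 and 2.77 (chr1:71289874-71289933 on mm9), a difference of 0.96. At 1.95-fold it was the gene just outside the threshold. The 2 genes were higher together, with a median of 1.11, and their differences were 0.83 and 0.53 at the lowest, with spike-in centring.

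Ceramide has other uses that compete with glucosylation, and the genes for these differed little. *Sgms1* and *Sgms2* encode the sphingomyelin synthases of the Golgi and mainly of the plasma membrane, and *Cerk* the kinase that makes ceramide phosphate. *Sgms1* had relative signals of 3.69 and 3.86, a difference of 0.07, with 0.04 from its other probe. *Cerk* had 4.96 and 5.27, a difference of 0.09, with 0.17 from its other probe. *Sgms2*, a dim probe at 0.0485 and 0.0397, differed by -0.29, and by -0.09 with another background correction. With spike-in centring *Sgms1*, *Cerk* and *Sgms2* differed by -0.36, -0.34 and -0.72. Without scaling *Sgms1* and *Cerk* were also below 0, at -0.21 and -0.19. The ratio of *Ugcg* to *Sgms1* was 2.28-fold higher in *Pnpla1*-/- skin, and its log2 value was 1.16 with normexp background correction and 1.21 with quantile normalization.

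**Figure D2:**
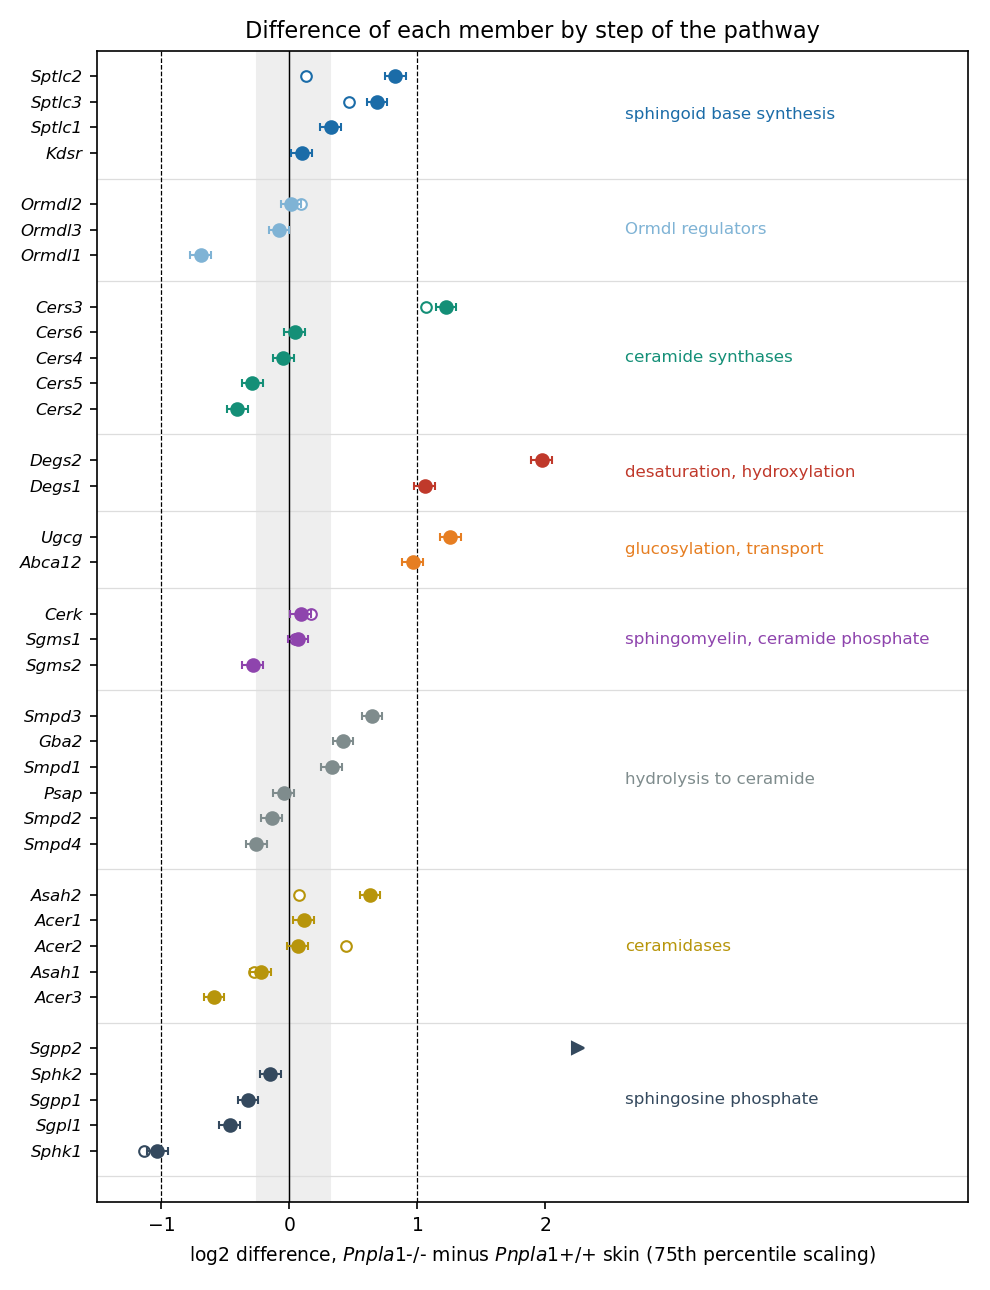
Log2 difference, *Pnpla1*-/- minus *Pnpla1*+/+ skin, for each of the 35 genes grouped by step; filled points are the probe that represents the gene with the technical SD of 0.08 as bars, open points are other probes, the triangle is the lower bound for *Sgpp2*, dashed lines mark 2-fold and the grey band is the interquartile range of all genes. Both desaturases, *Ugcg* and *Cers3* pass the upper line, while no gene of hydrolysis or of the ceramidases passes either line.

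The genes that return sphingomyelin and glucosylceramide to ceramide had a median of 0.14 over 6 genes, 3 above and 3 below 0, and none reached 2-fold. *Smpd3*, a neutral sphingomyelinase, was the highest with relative signals of 2.78 and 4.34, a difference of 0.64. *Gba2*, the glucosylceramidase outside the lysosome, had 4.74 and 6.33, a difference of 0.42. *Smpd1*, the acid sphingomyelinase that acts in the stratum corneum, had 12.01 and 15.1, a difference of 0.33. These 3 genes lay above the interquartile range of all genes, but *Gba2* and *Smpd1* changed sign with spike-in centring, to -0.01 and -0.10. *Psap*, which encodes the precursor of the saposins that assist lysosomal glycolipid hydrolases, had 6.80 and 6.59, a difference of -0.05. *Smpd2* (-0.14) and *Smpd4* (0.807 and 0.675, -0.26) were the lowest.

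The ratio of *Ugcg*, which adds the glucose, to *Gba2*, which can remove it, was 1.79-fold higher in *Pnpla1*-/- skin, with a log2 value of 0.79 with normexp background correction and 0.88 with quantile normalization.

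The ceramidases had a median of 0.06 over 5 genes, and again none reached 2-fold. *Acer1*, the alkaline ceramidase of the differentiated epidermis, had relative signals of 5.85 and 6.31, a difference of 0.11, which turned negative without scaling and with spike-in centring. *Asah1*, the acid ceramidase, had 1.25 and 1.07, a difference of -0.23, with -0.28 from its other probe. *Acer3*, an alkaline ceramidase found in many tissues, was the lowest with 0.727 and 0.483, a difference of -0.59. The ratio of *Acer1* to *Acer3* was accordingly 1.62-fold higher.

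For the other 2 ceramidases the probes gave different answers. The probe that represents *Asah2*, a neutral ceramidase, had 0.283 and 0.438, a difference of 0.63, while its other probe, of nearly the same signal in *Pnpla1*+/+ skin, had 0.313 and 0.331, a difference of 0.08. *Acer2*, the Golgi ceramidase, was dim with both probes, and these gave 0.06 and 0.44. Neither gene can be given 1 value from these arrays.

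Sphingosine phosphate genes held both the highest bound and the lowest value. *Sphk1*, which phosphorylates sphingosine, had relative signals of 6.94 and 3.39 (chr11:116397908-116397967 on mm9), a difference of -1.03 and 2.04-fold lower. Its other probe had 1.45 and 0.660, a difference of -1.13, so both probes passed 2-fold, and the gene stayed past 2-fold in all 11 alternatives. *Sphk2*, the second kinase, had 4.27 and 3.85, a difference of -0.15. The ratio of *Sphk2* to *Sphk1* was 1.84-fold higher in *Pnpla1*-/- skin, so the 2 kinases changed unequally.

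*Sgpl1*, the lyase through which sphingosine phosphate leaves the pathway, had relative signals of 9.02 and 6.53, a difference of -0.47. *Sgpp1*, a phosphatase that reverses the kinase step, had 22.1 and 17.7, a difference of -0.32. *Sgpp2*, the second phosphatase, was not well above background in *Pnpla1*+/+ skin, with 0.00267, and was measured in *Pnpla1*-/- skin with 0.0540 (chr1:78415829-78415888 on mm9). It was at least 4.76-fold higher there, counted against the higher of its own signal and the lowest signal among probes well above background on the *Pnpla1*+/+ array. Its probe was dim, and another probe named for the gene, placed on the opposite strand in the array design, was not well above background in either genotype. With normexp background correction the bound was 1.13 in place of 2.25 on the log2 scale. Apart from *Sgpp2*, the 4 genes of this step were all below 0 in all settings tried. Of all genes, 50.2% were above 0 with the main scaling. The changes of scaling moved the median of all genes down, so they could hardly turn a lower gene positive.

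By step, the synthesis genes (base synthesis, synthases and desaturases, 11 genes) had a median difference of 0.32 with 3 at least 2-fold higher, the 2 genes of glucosylation and transport 1.11 with 1 higher, and the 11 genes of hydrolysis and the ceramidases 0.06 with none past 2-fold. Beside the 6.7% of all genes that were higher, these counts are small numbers of few genes, and 0 of 11 is near the background. With centring on spike-in probes these medians were -0.11, 0.68 and -0.37. Synthesis exceeded breakdown by 0.26. A factor applied to a whole array cancels in this gap, so most alternatives could not move it, and it was 0.32 with quantile normalization, 0.25 with normexp background correction and 0.21 with the mean over all probes. It rests on how genes are assigned to the steps: it was 0.0048 with the Ormdl regulators counted among the synthesis genes and 0.42 with the sphingosine phosphate genes counted among those of breakdown. *Acer2*, whose probes disagreed, happened to be the middle gene of the breakdown group and of all 35 genes, so both medians are its value. The spread within each step was wider than the gap between the medians, from -0.41 for *Cers2* to 1.97 for *Degs2* in synthesis and from -0.59 for *Acer3* to 0.64 for *Smpd3* in breakdown.

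**Figure D3:**
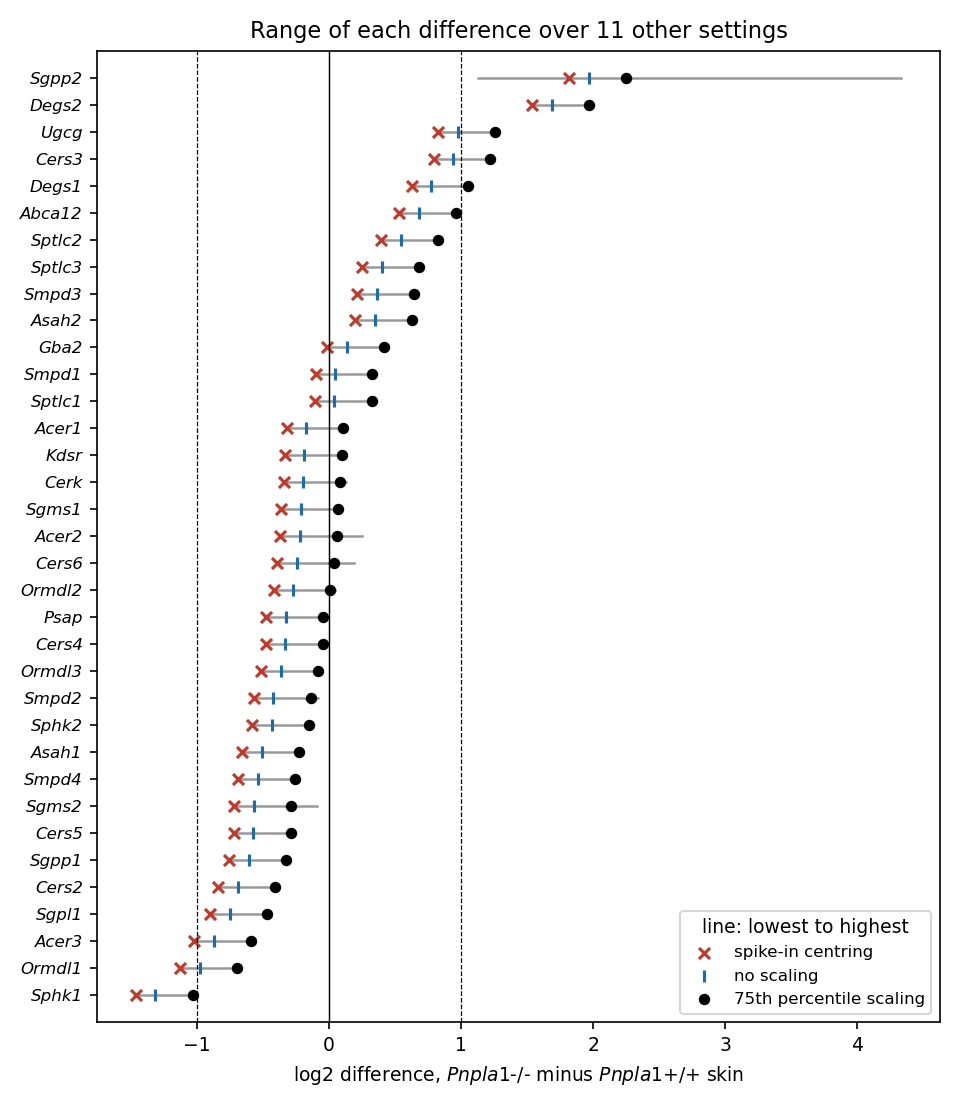
Log2 difference of each of the 35 genes, ordered by value; black points are the 75th percentile scaling used in the text, crosses centring on spike-in probes, blue ticks no scaling, lines the lowest to highest value over 11 alternative settings and dashed lines 2-fold. All values slide down together with spike-in centring, which carries *Sphk1* further past 2-fold. *Degs2*, *Sgpp2* and *Sphk1* stay past 2-fold throughout. The upper end of the *Sgpp2* line is its value without a filter on dim probes and is no bound.

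A further 38 genes of sphingolipid metabolism were listed by function. Of these, 36 had a difference, with a median of 0.22 and values from -0.31 for *Aldh3a2* to 1.29, and 2 were at least 2-fold higher (*Smpdl3a* and *B4galnt1*) and 0 lower, against the backgrounds of 6.7% and 3.04% given above. *Smpdl3a*, a relative of the acid sphingomyelinase that acts on nucleotides, had relative signals of 3.22 and 7.85, a difference of 1.29. *B4galnt1*, a ganglioside synthase, had 0.252 and 0.522, a difference of 1.05. *Sptssb* and *Enpp7* were not well above background in either genotype.

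The 4 transfer protein genes, which move ceramide and glycolipids between membranes, had a median of 0.61. *Cert1*, the carrier of ceramide to the site of sphingomyelin synthesis, differed by 0.67 and *Gltp*, a glycolipid carrier, by 0.56, while *Cptp*, which carries ceramide phosphate, differed by -0.16. *Plekha8* gave 0.66 from its brighter and -0.19 from its dimmer probe. *Sptssa*, a small subunit of serine palmitoyltransferase, differed by 0.44 and *Fa2h*, which hydroxylates the acyl chain, by 0.41. The 11 genes of lysosomal glycolipid breakdown had a median of 0.23, none past 2-fold, and the 10 genes for export, receptors and further fate of sphingosine phosphate 0.09, with *S1pr1*, a receptor of that lipid, highest at 0.63.

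Cell type markers were read on the same arrays. Of 6 basal, 6 suprabasal and 6 granular keratinocyte markers, the medians were 0.15, 0.15 and 0.33, and the summed relative signals went from 195.6 to 227.1 (brightest probe *Krt5*), from 327.2 to 354.6 (*Krt10*) and from 202.4 to 195.8 (*Lor*). A sum is set by its brightest probes and shows little of the others. Single markers went far in either direction: *Krt14* differed by 1.35 and *Krt15* by -1.67, *Tgm3* by 2.12 from its representative probe and 0.03 from another, and *Flg2* by -6.41. *Flg2*, a filaggrin-like gene of the granular layer, went from 9.71 to 0.114. All 8 hair follicle markers were below 0, with a median of -1.01, 5 at least 2-fold lower (3.04% of all genes), and a summed relative signal of 79.4 in *Pnpla1*+/+ and 41.8 in *Pnpla1*-/- skin, with *Krt71* the brightest probe.

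Several markers of blood cells were higher. Of 10 leukocyte markers, 9 had a difference with a median of 0.67, and *Lyz2*, *Ptprc* and *Adgre1* were at least 2-fold higher (6.7% of all genes), with summed relative signals of 15.8 and 23.3 and *Csf1r* the brightest probe. *Itgam* entered with -0.03 from its brightest probe, while its other probes gave 2.84 and 1.14. *Cd207* was not well above background in either genotype. Of the red cell markers reported here, *Alas2* and *Slc4a1* were at least 2-fold higher, with differences of 1.32 and 1.11, and *Hba-a1*, the brightest probe, had relative signals of 38.6 and 68.5, a difference of 0.83. Median differences of the fibroblast, adipocyte, skeletal muscle, endothelial and melanocyte markers were -0.07, 0.06, 0.06, 0.39 and -0.38. The part of any of these cell types in the differences of the sphingolipid genes was not tested.

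**Figure D4:**
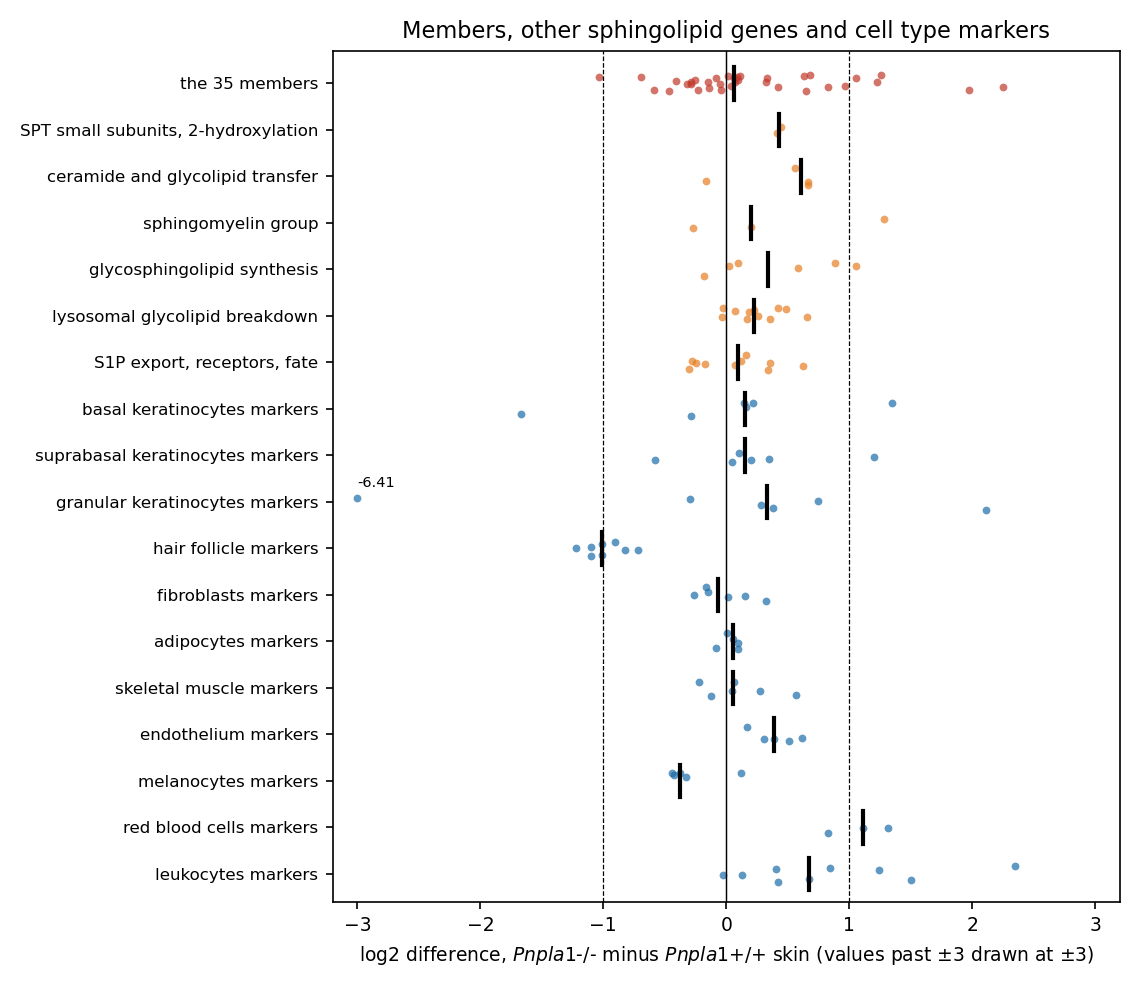
Log2 difference, *Pnpla1*-/- minus *Pnpla1*+/+ skin, of each gene in the sphingolipid set (red), the further sphingolipid genes by function (orange) and the cell type markers (blue), with 1 point per gene, the median as a black bar and 2-fold as dashed lines. The hair follicle markers lie below 0 with a median of -1.01, and the leukocyte markers have a median of 0.67; 3 red cell markers are drawn, while *Flg2* at -6.41 is drawn at the edge.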

How the data were processed

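Total RNA of each pool was labelled with Cy3 and hybridized to an Agilent mouse 44K array. The authors processed the scans with Agilent Feature Extraction 11.5.1.1 (the submitters' processing notes) and deposited, for each of 43020 spots, a linear intensity after background correction, with detection flags. A deposited table holds each intensity as a ratio to 1 factor per array (2109 and 1734) and served as an alternative. Both arrays lay on 1 slide and were scanned together.

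Intensities were divided by each array's 75th percentile. Spots flagged as outliers on either array were left out, log2 values of repeated spots averaged, and each gene represented by its brightest probe. Well above background were 71.7% (*Pnpla1*+/+) and 73.3% (*Pnpla1*-/-) of spots; none was saturated. A gene above background on 1 array got a bound, and 7735 genes on neither array got no value. Names came from the files or, for 31456 of 39429 probes, a RefSeq table (GRCm38.p6); probe coordinates are those of the array design (mm9), and the exons they lie in were not analysed here. Promoter sequences are RefSeq's. Python 3.11.15, numpy 2.4.6, pandas 2.3.3, R 4.3.3 and limma 3.58.1 were used. The computation was tested on data simulated from the *Pnpla1*+/+ array (200 of 200 changed genes found, 0 of the others, among 21666). This checks the computation alone and gives no rate of false calls, since the spread between mice is not known.

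The genes and lists were chosen with earlier results of these data known. Named in full were sphingolipid genes past 2-fold, those whose probes disagreed by over 0.5 and the highest and lowest gene of each step. A red cell marker of the list is not reported here, and the red cell markers shown are therefore not the whole list.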

Additional observations from a re-analysis of the deposited data

How the results depend on the processing

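Of 11 alternatives, 5 changed the scaling (the array median, none, the 75th percentile of probes detected on both arrays, quantiles, or centring on 8 E1A spike-in probes), and the rest were normexp background correction with an offset of 50, the deposited ratios, averaging all probes of a gene, dropping probes not detected on both arrays, keeping dim probes, and keeping outlier-flagged spots. Direction was kept in all of them by 25 of the 35 genes and by all 6 that were past 2-fold, and *Sgpp2* (which has no value once probes not detected on both arrays are dropped), *Degs2* and *Sphk1* stayed past 2-fold. The 10 genes that changed direction were all above 0 with the main scaling. All 5 changes of scaling moved the median of all genes down, so these counts say little about the stability of genes below 0, *Sphk1* among them. Of 85 values recomputed for the counts and medians, 64 moved by less than 1.5 times (counts) or the technical SD (medians) and 21 by more. Without scaling, 2 genes were at least 2-fold higher, and the medians were -0.22 over all 35 genes, 0.041 for synthesis, 0.83 for glucosylation and transport and -0.22 for breakdown. With spike-in centring, 2 were higher and 3 lower (*Sphk1*, *Ormdl1* and *Acer3*), and the medians were -0.37, -0.11, 0.68 and -0.37. With quantile normalization the medians over all 35 genes and over breakdown were both -0.032. The median of all genes moved by -0.28 without scaling, -0.44 with spike-in centring and 0.10 without a filter on dim probes; relative to it, the median of the 35 genes was 0.06, 0.07 and -0.04. After the 75th percentile scaling the spike-in probes stood 0.43 above *Pnpla1*+/+ on the *Pnpla1*-/- array, and which scaling is nearer to the RNA content of the skin was not tested. Of all genes past 2-fold, 68.8% were higher with the 75th percentile, 58.8% with quantile normalization, 41.2% without scaling and 27.5% with spike-in centring. At 1.5-fold, 10 of the 35 genes were higher and 3 lower, and at 3-fold 2 and 0, against 13.8%, 9.35%, 3.06% and 1.02% of all genes. Counting the sphingosine phosphate genes with breakdown gave a breakdown median of -0.093 and a gap to synthesis of 0.42, and counting the Ormdl genes with synthesis gave a synthesis median of 0.068 and a gap of 0.0048. With 1 array per genotype, leaving out an array, pairing and a term for the slide were not run. Dim probes limit *Sgpp2*, *Acer2*, *Cers6* and *Sgms2*.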
